A study of Mus musculus with 12 samples.

Results

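RNA of fibronectin, tenascin C and 8 other matrix and matricellular proteins was followed through the lungs of control, bleomycin and bleomycin-plus-granule mice. The set comprised the 10 genes of the table named Fn1, Tnc, Sparc, Vcan, Ccn1, Ccn2, Ccn4, Thbs1, Thbs2 and Thbs4, out of 56980 genes. It was chosen by name, each name matched 1 row, and all 10 passed the filter on low counts.

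The samples were 12 libraries of polyadenylated lung RNA from male C57BL/6 mice aged 6 to 8 weeks, 4 in each of 3 groups. Control mice received distilled water, and no label gives them bleomycin or a sham instillation. For all 3 groups the labels give euthanasia on day 28. Model mice received 1 dose of bleomycin, 5 mg/kg into the trachea, and distilled water. HBG mice had the same bleomycin plus an oral herbal mixture of Chinese medicine, Huashibaidu granules, given at 7 g/kg. The series description has the granules given from a week before bleomycin until day 28, whereas the sample labels have them begin on day 7 and last 14 days and leave the dose of the sequenced group partly open. Bleomycin is a cytotoxic drug that injures the lung lining and is used to model scarring. No label ties a library to an animal of its own, so p-values reflect only how far the libraries scatter, and that scatter may be technical.

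Matricellular proteins are secreted into the matrix but act mainly as signals. They bind integrins and other cell receptors, growth factors and proteases, and most are scarce in resting adult tissue and abundant in healing tissue. Fibronectin and versican form part of the provisional matrix on which collagen is later laid down, and fibroblasts, macrophages and the endothelium can all make members of this group. The table holds 1 value per gene, so splice forms of Fn1, Tnc and Vcan, which differ in their domains, were not resolved.

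Library totals ranged from 17979899 to 27150846 rounded estimated counts. Levels are in CPM, counts scaled to a common library size with TMM factors, and means are given with the SD over 4 libraries. Markers of alveolar epithelium were abundant in every library, with a summed level of 16079 to 29694 CPM over 10 of 10 markers tested. Heart muscle markers were present too, at 341.3 to 5706 CPM summed over 12 of 12 markers. Some libraries stood apart. HBG 3 and Model 2 received the lowest sample quality weights in limma-voom, 0.231 and 0.33, and HBG 1 correlated least with HBG 3 within the group (r = 0.925 across genes).

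Of the 10 genes, 9 had a higher mean in Model than in Control and 1, Ccn1, had a lower mean, yet none passed the edgeR quasi-likelihood test after adjustment over 17827 genes. The adjusted p ranged from 0.119 for Fn1 to 0.819 for Thbs1, against 0.348% of all genes that passed. An unadjusted p under 0.05 was reached by 6 members, Fn1, Tnc, Sparc, Vcan, Thbs2 and Thbs4, and by 11.7% of all genes. The median over the members was 1.47-fold, beside 1.01-fold over all genes tested, of which 51.5% were higher. DESeq2 called 2 members, Fn1 and Tnc, against 2.14% of the genes it adjusted over. With quality weights, limma-voom called 6, Fn1, Tnc, Sparc, Vcan, Ccn4 and Thbs4, against 6.05% of all genes. Its weights in Model 1 to 4 were 1.372, 0.33, 2.955 and 0.533, so Model 1 and Model 3 counted for more than Model 2 and Model 4.

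In HBG the means of all 10 were below those in Model, and again none passed (edgeR adjusted p = 0.9999 for each, against 0% of all genes that passed). An unadjusted p under 0.05 was reached by 6 members, Fn1, Tnc, Sparc, Vcan, Ccn4 and Thbs2, and by 2.43% of all genes. The median was 0.615-fold, beside 1.0-fold over all genes. Neither DESeq2 nor limma-voom called any member here, against 0.00874% and 0% of their genes. In limma-voom 9 members had an unadjusted p under 0.05, as did 14.8% of all genes. The comparison shares its 4 Model libraries with the first, so the opposite directions are not separate pieces of evidence. Against Control, 4 members were higher in HBG and 6 lower, with a median of 0.984-fold. None passed in edgeR, DESeq2 or limma-voom (edgeR adjusted p from 0.592 to 0.991, against 0.151% of all genes that passed in edgeR, 0.982% in DESeq2 and 0.567% in limma-voom). Fn1 alone had an unadjusted edgeR p under 0.05, which 8.25% of all genes had.

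**Figure D1:**
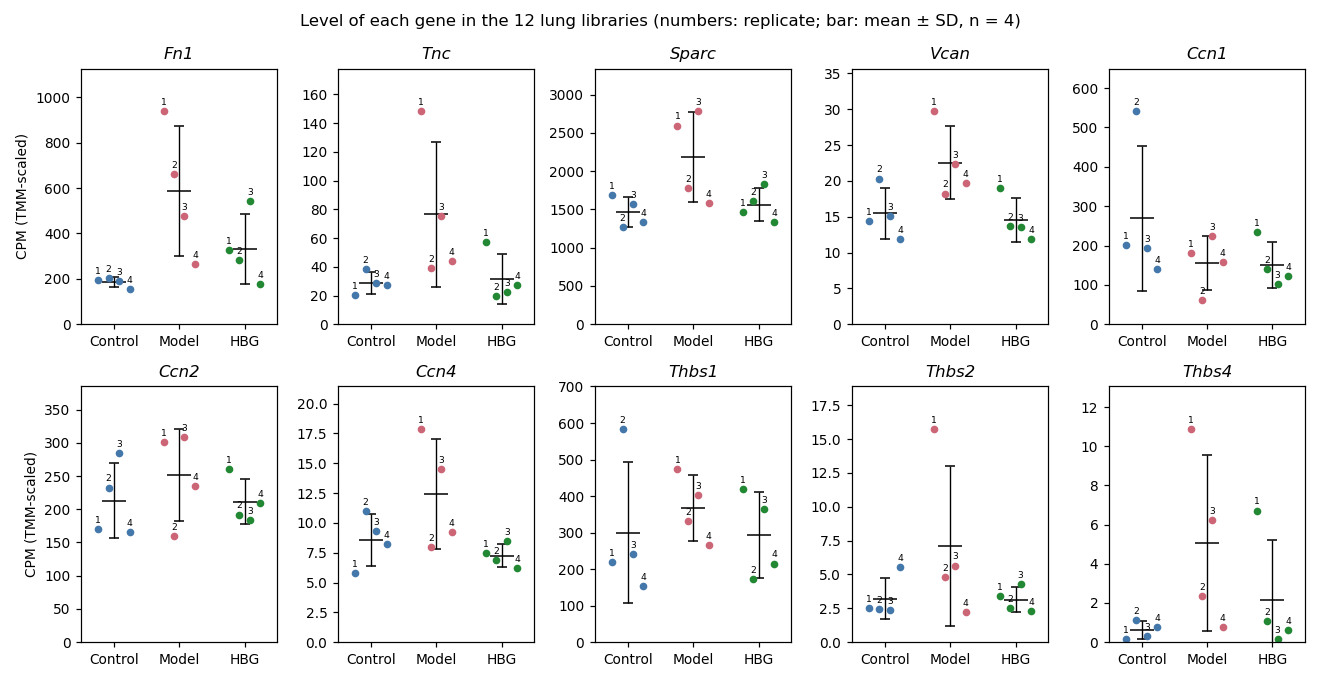
Level of each of the 10 genes in CPM (vertical axis from 0, linear) in 4 Control, 4 Model and 4 HBG libraries, with the replicate number at each point and bars for the mean and SD; a lower bar that would pass below 0 ends at the axis. Fn1 and Tnc are the 2 genes whose Model libraries all lie above the Control libraries, and Model 1 is the highest library for 6 of the 10.

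Libraries of the bleomycin group were uneven. Model 1 had the highest level of all 12 libraries for 6 members, Fn1, Tnc, Vcan, Ccn4, Thbs2 and Thbs4, and Model 3 for Sparc and Ccn2. Control 2 was the highest for the remaining pair, Ccn1 and Thbs1. Model 2 and Model 4 were each the lowest Model library for 5 members. HBG 1 was the highest HBG library for 6 members and HBG 4 the lowest for 5.

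**Figure D2:**
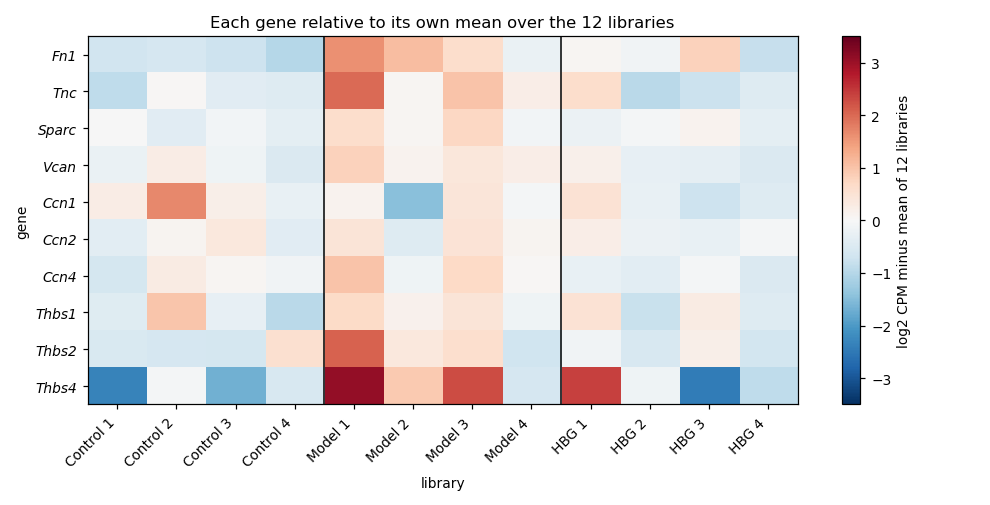
Log2 CPM of each gene (rows) in each library (columns) minus its mean over the 12 libraries, blue below and red above. Model 1 and Model 3 are above the mean for all 10 genes, and Ccn1 and Thbs1 are highest in Control 2.

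Levels per length set the members in a wide order. Averaged over the 12 libraries and divided by the deposited gene length, Sparc led with 1332 CPM per kilobase, higher than 99.8% of the genes tested. Ccn1 and Ccn2 followed at 94.9 and 93.9, Thbs1 at 54.7 and Fn1 at 44.2 CPM per kilobase. Tnc had 6.42 CPM per kilobase, near the middle of all genes (percentile 49.6), while Ccn4 had 1.85, Vcan 1.41, Thbs4 0.814 and Thbs2 0.761. In Control the neighbours Ccn1 (133 ± 90.9) and Ccn2 (88.8 ± 23.5 CPM per kilobase) did not differ beyond their spread, nor did Ccn4 (1.68 ± 0.422) and Vcan (1.24 ± 0.283). Fn1 stood below Thbs1 per kilobase in Control (22.3 ± 2.58 and 51.2 ± 33.0), whereas in Model it had 70.4 ± 34.4 beside 62.9 ± 15.4 CPM per kilobase for Thbs1 and 77.3 ± 34.0 for Ccn1, all 3 within their spreads.

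Gene positions are those of GENCODE M21 on GRCm38. Fibronectin (Fn1, ENSMUSG00000026193; chromosome 1, 71585520 to 71653200, minus strand) is the adhesive glycoprotein on which cells pull through integrins to build a fibrillar matrix. Its level was 193.6, 205.0, 188.7 and 155.0 CPM in Control 1 to 4, and 938.4, 662.6, 476.6 and 263.2 CPM in Model 1 to 4. All 4 Model libraries lay above all 4 Control libraries, as did 4.2% of the genes tested. Model averaged 585.2 ± 286.5 CPM and Control 185.5 ± 21.5, which on the log2 scale is 1.66 ± 0.38 (SE, edgeR adjusted p = 0.119). In HBG 1 to 4 it had 326.8, 283.5, 543.9 and 177.4 CPM, so that HBG 4 lay in the Control range and the other 3 in the Model range. The log2 fold change of HBG against Model was -0.81 ± 0.37 (SE, edgeR adjusted p = 0.9999), and of HBG against Control 0.84 ± 0.37 (adjusted p = 0.592). Model against Control passed without Model 4 (adjusted p = 0.0457) and without both Model 4 and HBG 3 (adjusted p = 0.00878), at a log2 fold change of 1.90 each time.

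Macrophage markers varied between libraries too. In Model against Control 12 of 14 markers were higher (8 at an unadjusted p under 0.05, none called by edgeR), with a median of 1.98-fold, and no marker was at 0. Summed over the list they ranged from 4524 to 6815 CPM in Control libraries, from 4347 to 10307 in Model libraries and from 6294 to 7364 in HBG libraries. Lyz2, the lysozyme gene, made up most of this sum. Model 4, the lowest Model library for Fn1, was also the lowest for the sum and for the mean log2 level of the list. In HBG the markers differed, though HBG 1 and HBG 3 had nearly the same list score (0.445 and 0.441). Lyz2, Cd68, Mrc1, Adgre1, Csf1r, Marco and Siglecf were highest in HBG 3 within HBG, as Fn1 was. The rest, C1qa, C1qb, C1qc, Cd14, Trem2, Gpnmb and Fabp4, were highest in HBG 1. In HBG against Control 14 of 14 were higher, 7 at an unadjusted p under 0.05, with none called. The lysosomal macrophage protein Cd68 had 88.1, 45.5, 53.6 and 20.5 CPM in Model 1 to 4 and 12.6 to 16.1 CPM in Control. Fibroblast markers summed to 2440 to 2815 CPM in Control libraries, 3022 to 4134 in those of Model and 2315 to 3524 in those of HBG. Of these markers 11 of 14 were higher in Model than in Control, with none called or at 0. In HBG against Model 13 of 14 fibroblast markers were lower, 3 at an unadjusted edgeR p under 0.05. Of the macrophage markers 9 of 14 were lower there, 0 at that level. Both lists had a median of 0.881-fold, and edgeR called no marker. The part of these cells in the Fn1 values was not tested, and in whole tissue more cells of a type cannot be told apart from more RNA per cell.

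**Figure D3:**
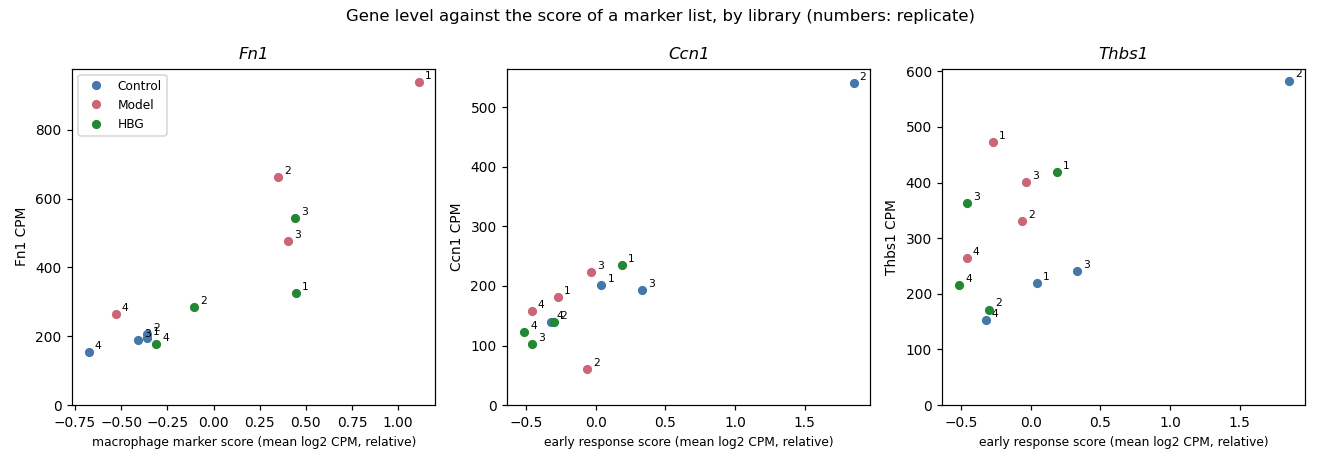
CPM of Fn1 against the macrophage marker score, and of Ccn1 and Thbs1 against the early response score, 1 point per library with its replicate number. A score is the mean log2 CPM of the list relative to the mean library. Fn1 is highest in Model 1, which has the highest macrophage score, and Ccn1 and Thbs1 are highest in Control 2, which has the highest early response score.

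Tenascin C (Tnc, ENSMUSG00000028364; chromosome 4, 63959785 to 64047015, minus strand) is a large glycoprotein of developing and wounded tissue that weakens the hold of cells on fibronectin. It had 20.4, 38.4, 28.6 and 27.2 CPM in Control 1 to 4 and 148.3, 39.0, 75.1 and 43.8 CPM in Model 1 to 4. The groups did not overlap, but Model 2 exceeded Control 2 by little. In edgeR the log2 fold change was 1.42 ± 0.45 (SE, edgeR adjusted p = 0.257), and 0.88 without Model 1, whose removal brought the Model mean from 76.6 to 52.6 CPM. HBG 1 to 4 had 57.3, 19.4, 22.4 and 27.3 CPM, with 3 of the 4 below every Model library and HBG 1 above Model 2 and Model 4. The log2 fold change of HBG against Model was -1.28 ± 0.45 (SE, edgeR adjusted p = 0.9999). The mean in HBG, 31.6 ± 17.5 CPM, lay near that of Control, 28.7 ± 7.45, with a 95% interval of -0.82 to 1.1 for their log2 difference, and was 23.0 CPM without HBG 1.

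Versican (Vcan, ENSMUSG00000021614; chromosome 13, 89655312 to 89742509, minus strand) is a proteoglycan that binds hyaluronan and makes a loose, swollen matrix. Control 1 to 4 had 14.45, 20.3, 15.1 and 11.9 CPM, Model 1 to 4 had 29.7, 18.2, 22.4 and 19.7 CPM, and HBG 1 to 4 had 18.9, 13.7, 13.6 and 11.9 CPM. Only Control 2 reached the Model range, and HBG 1 was the single HBG library inside it. In edgeR the log2 fold changes were 0.54 ± 0.21 for Model against Control and -0.63 ± 0.21 for HBG against Model (SE, edgeR adjusted p = 0.338 and 0.9999). No member separated HBG from Model entirely, where 0.662% of all genes had every HBG library below every Model library.

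Sparc (ENSMUSG00000018593; chromosome 11, 55394500 to 55423183, minus strand) encodes a collagen-binding protein that helps collagen leave the cell surface and join fibrils. Its level was 1684, 1272, 1572 and 1332 CPM in Control 1 to 4 and 2595, 1779, 2783 and 1586 CPM in Model 1 to 4. Model 1, Model 2 and Model 3 lay above the Control range and Model 4 within it. The log2 fold change was 0.58 ± 0.19 (SE, edgeR adjusted p = 0.286). HBG 1 to 4 had 1466, 1610, 1831 and 1332 CPM, with a mean of 1560 ± 213.5 beside 1465 ± 195.2 CPM in Control. In edgeR the log2 fold change of HBG against Model was -0.49 ± 0.19 (SE, edgeR adjusted p = 0.9999), and the 95% interval of HBG against Control ran from -0.33 to 0.51.

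The CCN proteins share a modular build and link integrins to growth factor signals. Ccn1 (ENSMUSG00000028195; chromosome 3, 145646976 to 145649981, minus strand), also an early response gene, had 201.7, 541.2, 193.0 and 140.0 CPM in Control 1 to 4, so that Control 2 stood far above the others. Model 1 to 4 had 181.4, 61.0, 222.9 and 158.7 CPM and HBG 1 to 4 had 235.2, 139.8, 101.8 and 122.5 CPM, and all 3 groups overlapped. The means were 269.0 ± 183.5 CPM in Control, 156 ± 68.7 in Model and 150 ± 59.0 in HBG. The log2 fold change of Model against Control was -0.79 ± 0.47 (SE, edgeR adjusted p = 0.535) and -0.20 without Control 2, which brought the Control mean to 178 CPM. HBG against Model had -0.06 ± 0.46 (SE, edgeR adjusted p = 0.9999), and its sign turned without Model 1, Model 3, HBG 3 or HBG 4 (up to 0.16).

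Early response genes, which serum and stress switch on within minutes, had a summed level of 9383 CPM in Control 2 and of 2116 to 3423 CPM in the other Control libraries. Model and HBG had 2048 to 2557 and 1931 to 2776 CPM. In Model 20 of 22 tested genes of the list were lower than in Control, 8 with an unadjusted p under 0.05. Of these only Jund, an AP-1 subunit, passed and fell, from 307 ± 76.2 to 73.9 ± 11.1 CPM (edgeR adjusted p = 0.00157). The transcription factor Klf2 had 244 ± 68.6 CPM in Control and 107 ± 18.4 in Model (adjusted p = 0.0791). In HBG against Model 12 of 22 were higher and none was called, with a median of 1.01-fold. Fosb, another AP-1 subunit, had 7.06 ± 1.96 CPM in Model and 18 ± 23.7 in HBG, and the growth regulator Myc 10.8 ± 3.52 and 8.32 ± 4.01 CPM. For Fosb, HBG 1 had 53.5 CPM and HBG 2 to 4 had 7.25, 5.34 and 5.82. The part of the early response in the Ccn1 values was not tested.

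Ccn2 (ENSMUSG00000019997; chromosome 10, 24595442 to 24598683, plus strand), connective tissue growth factor, is a long-studied target of TGF-beta in fibroblasts. It had 170.4, 232.7, 283.9 and 165.3 CPM in Control 1 to 4, 301.7, 159.5, 308.4 and 234.9 in Model 1 to 4, and 259.8, 192.0, 183.5 and 209.6 in HBG 1 to 4. Model 1 and Model 3 lay above the Control range while Model 2 was the lowest of all 12 libraries. In edgeR the log2 fold change was 0.24 ± 0.23 for Model against Control (SE, edgeR adjusted p = 0.727), with a 95% interval of -0.26 to 0.73. HBG against Model gave -0.25 ± 0.23 (SE, edgeR adjusted p = 0.9999), and HBG against Control -0.01 with an interval of -0.51 to 0.48.

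Ccn4 (ENSMUSG00000005124; chromosome 15, 66891320 to 66923201, plus strand), a Wnt-induced protein, had 5.82, 10.96, 9.29 and 8.24 CPM in Control 1 to 4 and 17.9, 7.98, 14.5 and 9.24 CPM in Model 1 to 4. Model 1 and Model 3 exceeded the Control range and the other 2 lay within it. HBG 1 to 4 had 7.46, 6.87, 8.46 and 6.21 CPM, the narrowest spread of the 3 groups, with 3 of 4 below every Model library. The log2 fold changes were 0.53 ± 0.26 for Model against Control and -0.77 ± 0.26 for HBG against Model (SE, edgeR adjusted p = 0.468 and 0.9999).

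Thrombospondins bind calcium, collagen and cell receptors, and thrombospondin 1 can release TGF-beta from its latent complex. Thbs1 (ENSMUSG00000040152; chromosome 2, 118111876 to 118127133, plus strand) had 219.5, 583.4, 241.1 and 153.6 CPM in Control 1 to 4, 473.4, 330.9, 401.6 and 264.7 in Model 1 to 4, and 419.6, 171.7, 363.5 and 215.1 in HBG 1 to 4. Control 2 was again the highest library, and the other 3 Control libraries lay below all 4 of Model. In edgeR the log2 fold change of Model against Control was 0.30 ± 0.40 (SE, edgeR adjusted p = 0.819), and 0.84 without Control 2, where the Control mean was 205 in place of 299 CPM. HBG against Model gave -0.33 ± 0.40 (adjusted p = 0.9999), and HBG against Control -0.03, which became 0.50 without Control 2. Platelets store this protein. Platelet markers summed to 54.9 to 83.4 CPM in Control libraries, 35.4 to 108.5 in those of Model and 55.4 to 89.7 in those of HBG. The lowest sum was that of Model 1. In Model 8 of the 10 were higher and 2 lower than in Control, and in HBG 3 were higher and 7 lower than in Model, with none called. None was at 0 in every library, but Gp1bb was at 0 in Model 1 to 3 and in HBG 3, beside a mean of 1.63 CPM in Control. Their part in the Thbs1 values was not tested.

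Thbs2 (ENSMUSG00000023885; chromosome 17, 14665500 to 14694235, minus strand), an inhibitor of vessel growth made by fibroblasts, was scarce. It had 2.53, 2.45, 2.37 and 5.53 CPM in Control 1 to 4 and 15.7, 4.80, 5.66 and 2.23 CPM in Model 1 to 4. Control 4 stood apart from the other Control libraries and Model 1 from the other Model libraries, while Model 4 was the lowest of the 12. HBG 1 to 4 had 3.40, 2.49, 4.30 and 2.33 CPM. The log2 fold change was 1.14 ± 0.51 for Model against Control and -1.18 ± 0.52 for HBG against Model (SE, edgeR adjusted p = 0.421 and 0.9999). Without Model 1 the Model mean was 4.23 in place of 7.11 CPM and the log2 fold changes were 0.40 and -0.43.

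Thbs4 (ENSMUSG00000021702; chromosome 13, 92751590 to 92794818, minus strand), a thrombospondin of tendon, muscle and heart, had the largest fold change of the 10 in Model against Control and the fewest reads. Its counts were 3, 23, 8 and 16 in Control 1 to 4, 204, 47, 138 and 15 in Model 1 to 4, and 144, 20, 3 and 11 in HBG 1 to 4. A count of 3, found in Control 1 and HBG 3, equals the upper limit that a count of 0 allows, which covers counting error only. Model 1, Model 3 and HBG 1 had 10.9, 6.24 and 6.72 CPM, and the other 9 libraries had 0.142 to 2.37 CPM. In edgeR the log2 fold change of Model against Control was 3.06 ± 1.10 (SE, edgeR adjusted p = 0.313). HBG against Model gave -1.23 ± 0.996 (adjusted p = 0.9999), and -3.06 without HBG 1, where the HBG mean was 0.611 in place of 2.14 CPM. HBG against Control gave 1.83 ± 1.08 (adjusted p = 0.68) and 0.01 without HBG 1. Without Model 1 the Model mean was 3.13 in place of 5.07 CPM. Heart muscle markers summed to 855.4, 5706, 3003 and 2385 CPM in Control 1 to 4, 536.9, 1294, 353.7 and 3269 in Model 1 to 4, and 3441, 1216, 341.3 and 3205 in HBG 1 to 4. Within Control and within HBG the highest and the lowest library for this sum were those for Thbs4, whereas in Model the 2 libraries highest for Thbs4 were the 2 lowest for the sum. Skeletal muscle and tendon markers summed to 71.3 to 169.3 CPM in Control libraries, 42.6 to 140.9 in those of Model and 38.1 to 133.5 in those of HBG. In Control most of that sum was Ckm, Chad and Tnnt3. Of 7 tested genes of this list, 3 (Acta1, Fmod and Prg4) were higher in Model than in Control. The other 4, Ckm, Chad, Tnnt3 and Scx, were lower, with a median of 0.683-fold over the list and none called. Scx had 7.78 ± 1.05 CPM in Control, 4.95 ± 2.09 in Model and 3.86 ± 0.474 in HBG, with 3.96 CPM in HBG 1. The collagen-binding tendon proteoglycan Fmod, of the same list, had 5.4 to 8.14 CPM in Control, 37.1, 10.7, 12.7 and 6.8 in Model 1 to 4 and 9.8, 8.49, 9.64 and 4.33 in HBG 1 to 4, so that Model 1, Model 3 and HBG 1, the 3 libraries highest for Thbs4, lay above the Control range for Fmod, as did Model 2, HBG 2 and HBG 3. The part of muscle and tendon in the Thbs4 values was not tested.

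**Figure D4:**
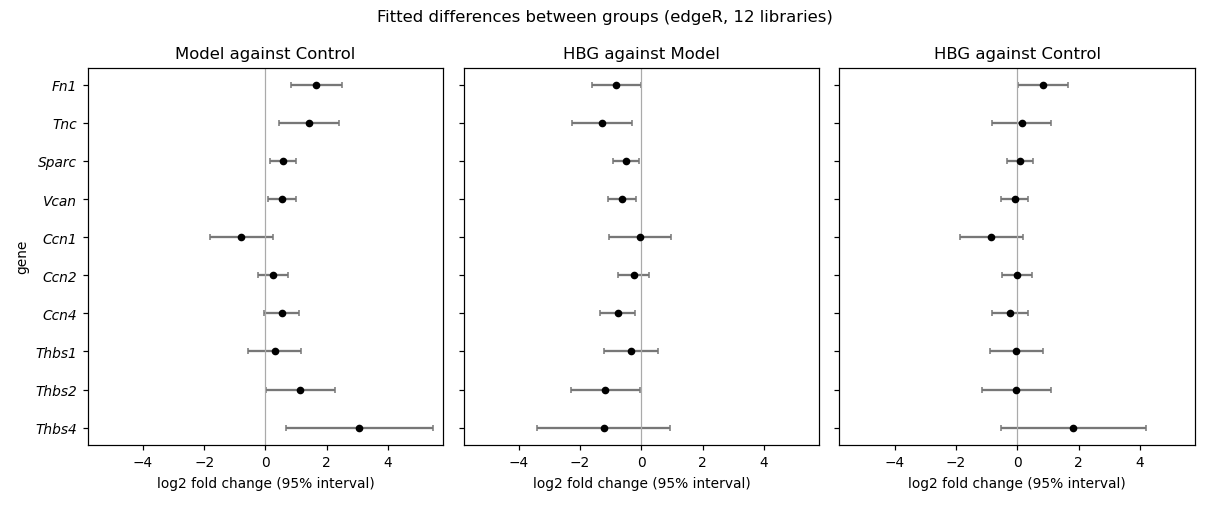
Fitted log2 fold changes (points) with unadjusted 95% intervals (bars) for the 10 genes in the 3 comparisons. The interval lies above 0 for Fn1, Tnc, Sparc, Vcan, Thbs2 and Thbs4 in Model against Control, and below 0 for 6 genes in HBG against Model, none of which passed after adjustment over all genes.

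Promoter sequence was at hand for 6 of the 10 members (RefSeq, GRCm38.p6). Ccn2, Ccn4, Fn1 and Thbs1 had no entry. The 250 bases before the start were searched on both strands for CATTCC, the core site of the TEAD factors of the YAP/TAZ pathway, for the TATA box TATAAA, the AP-1 site TGANTCA, the SMAD sequence CAGACA, the SP1 site GGGCGG and the CArG box of serum response factor. Over 32851 windows of this length, 12.6% held the TEAD site, 12.4% the TATA box, 6.75% the AP-1 site, 17.1% the SMAD sequence, 32.7% the SP1 site and 1.47% the CArG box. Ccn1 is shown since it was highest in Control 2, and Tnc and Vcan since both were highest in Model 1 and Model 3 within Model. This is not particular to Tnc and Vcan, since Model 1 and Model 3 were the highest Model libraries, in either order, for every other member except Fn1. Capitals mark the matches, read 5′ to 3′ on the gene's strand.
Ccn1 (minus strand, chr3:145649986-145650235): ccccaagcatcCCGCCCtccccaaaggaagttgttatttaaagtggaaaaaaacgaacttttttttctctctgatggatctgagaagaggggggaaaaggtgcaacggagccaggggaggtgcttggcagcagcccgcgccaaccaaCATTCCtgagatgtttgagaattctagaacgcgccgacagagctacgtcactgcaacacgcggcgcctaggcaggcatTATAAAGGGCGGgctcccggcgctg
Tnc (minus strand, chr4:64046937-64047186): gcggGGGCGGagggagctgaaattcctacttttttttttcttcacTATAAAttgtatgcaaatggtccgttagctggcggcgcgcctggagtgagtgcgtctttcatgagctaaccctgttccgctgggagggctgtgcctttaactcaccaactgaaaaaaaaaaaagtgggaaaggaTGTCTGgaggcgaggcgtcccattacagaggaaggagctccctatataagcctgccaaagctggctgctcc
Vcan (minus strand, chr13:89742513-89742762): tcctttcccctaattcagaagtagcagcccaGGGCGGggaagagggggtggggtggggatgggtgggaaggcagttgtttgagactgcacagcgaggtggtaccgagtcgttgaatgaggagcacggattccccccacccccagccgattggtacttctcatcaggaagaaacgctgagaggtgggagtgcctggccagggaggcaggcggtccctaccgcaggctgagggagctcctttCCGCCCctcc

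Ccn1 held 1 TEAD site, 103 to 98 bases before its start, a TATA box 25 to 20 bases before it and 2 SP1 sites, 1 of which directly followed the TATA box without overlapping it. Thbs4 held 2 TEAD sites that overlap by 1 base, with 3 SP1 sites and a SMAD sequence. Tnc held an SP1 site, a SMAD sequence and a match to TATAAA. That match lay 205 to 200 bases before the start, much farther out than in Ccn1. Other forms of a TATA box were not searched for. A second listed window of Tnc overlaps the one shown. Vcan held 2 SP1 sites and no other match. Sparc held 1 SMAD sequence and Thbs2 held 2, with a TATA box on the opposite strand. No window of these 6 genes held the AP-1 site or the CArG box.

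Genes of the same pathways were read beside the members. Among 21 tested further matricellular and adhesive glycoproteins, 16 were higher in Model and 18 were lower in HBG than in Model, with medians of 1.12-fold and 0.892-fold, beside 1.01-fold and 1.0-fold over all genes, and none called by edgeR. Osteopontin (Spp1), a cytokine-like matrix protein of macrophages, had 87.0 ± 42.6 CPM in Control, 731 ± 707 in Model and 290 ± 273 in HBG (edgeR adjusted p = 0.192 for Model against Control). Tgfbi, a TGF-beta-induced adhesion protein, had 69.5 ± 4.86, 115 ± 34.6 and 92.4 ± 17.4 CPM in the same order. Ccn5, a CCN protein that lacks the C-terminal domain of the family, had 34.6 ± 6.48, 48.8 ± 14.9 and 30.1 ± 7.32 CPM, and the matrix linker Fbln2 17.7 ± 1.92, 25.5 ± 5.63 and 18.7 ± 1.56 CPM.

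Of 20 receptors, 17 were higher in Model than in Control (median 1.22-fold, 7 at an unadjusted p under 0.05) and 15 lower in HBG than in Model (median 0.944-fold), and edgeR called none. Lrp1, an endocytic receptor that clears thrombospondins, had 278 ± 15.8 CPM in Control, 399 ± 51.2 in Model and 327 ± 66.2 in HBG (edgeR adjusted p = 0.187 for Model against Control). The integrin subunit Itgav had 69.5 ± 5.62, 94.5 ± 17.6 and 87.5 ± 10.5 CPM, and Itgb8, which pairs with it, 3.59 ± 1.27, 3.97 ± 0.991 and 2.99 ± 0.708 CPM.

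Of 20 TGF-beta and YAP/TAZ response genes, 15 were higher in Model than in Control (median 1.16-fold) and 14 lower in HBG than in Model (median 0.951-fold), with none called. The receptor kinase Axl had 77.1 ± 5.45 CPM in Control, 128 ± 27.4 in Model and 117 ± 30.6 in HBG. Ltbp2, which binds fibrillin, had 109 ± 13.0, 197 ± 85.2 and 119 ± 17.4 CPM, and Pmepa1, a feedback inhibitor of TGF-beta signalling, 69.1 ± 9.56, 88.3 ± 20.3 and 65.9 ± 15.4 CPM. Of 19 tested proteases and modulators that act on these proteins, 17 were higher in Model than in Control (median 1.33-fold) and 18 lower in HBG than in Model (median 0.775-fold), with none called. The metalloproteinase Mmp19 had 19.9 ± 4.41, 57.2 ± 38.4 and 34.2 ± 9.84 CPM, and the macrophage elastase Mmp12 3.85 ± 1.5, 45.2 ± 35.1 and 40.8 ± 61.8 CPM. The HBG mean of Mmp12 rested on HBG 1, with 133.5 CPM beside 10.4, 12.6 and 6.77 in HBG 2 to 4. Mmp2, a gelatinase, had 134 ± 39.7, 236 ± 97.3 and 149 ± 23.5 CPM, and the procollagen protease Bmp1 65.3 ± 7.65, 82.2 ± 13.3 and 63.7 ± 10.7 CPM.

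The genes whose log2 CPM followed each member most closely over the 12 libraries were taken as a description. They came from 14120 tested genes with a mean of at least 1 CPM, leaving out the other members. Each named gene is thus the top of a wide search over only 12 libraries. Among the members themselves the closest pair was Tnc and Vcan (Pearson r = 0.905). Libraries of 3 groups enter these values together, so group differences contribute to them. Fn1 was followed by Col6a1, a microfibrillar collagen chain (Pearson r = 0.978), Dab2, an endocytic adaptor (0.966), and Cd68 (0.959). Tnc was followed by Cygb (0.947), Fxyd6 (0.946) and Cacnb3 (0.944), and Vcan by Tgif1 (0.948), Serpina3n (0.918) and Cygb (0.904). Sparc was followed by Cldn18, a tight junction protein of alveolar epithelium (0.960), Akap5 (0.930) and Slc44a2 (0.921). Ccn4 was followed by the microfibril gene Mfap5 (0.898), the growth factor Igf1 (0.892) and the collagen crosslinking enzyme Loxl2 (0.890). Ccn1 was followed by Slc4a4 (0.924), Trim13 (0.913) and Olfr648 (0.903), and Ccn2 by Gtf2e2 (0.931), Retnla (0.918) and Btbd19 (0.918). Thbs1 was followed by Rcan1 (0.938), Adamtsl1 (0.920) and Ptger4 (0.892). Thbs2 was followed by Pdgfrl (0.936), Prnd (0.933) and Fmod (0.918), and Thbs4 by Galc (0.944), Adgrg2 (0.941) and Fxyd6 (0.941). Rank (Spearman) correlations were lower for some of these pairs, as for Igf1 with Ccn4 (0.706), and higher for others, as for Adgrg2 with Thbs4 (0.979).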

How the data were processed

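Polyadenylated lung RNA was sequenced as paired reads of 150 bases in 12 libraries, per the labels' protocols. The authors deposited 1 table of estimated counts per gene; this unit was read from the values, since 10.0% to 15.1% of a library's values were not whole and totals differed. Its gene length, another deposited column, was used for levels per kilobase. Per the submitters' processing notes, fastp, cutadapt, Trimmomatic 0.39, HISAT2, STAR 2.7.9a, HTSeq, featureCounts 2.0.1 and DESeq2 1.34.0 were used in roles they do not state, as were the builds mm10 and GRCm39. Which of them made the table, the sources used here do not say.

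Estimated counts were rounded, scaled by TMM, filtered with filterByExpr (17827 genes kept) and tested with edgeR 4.0.16 in R 4.3.3 over all 12 libraries with group as the term, two-sided, adjusted by Benjamini-Hochberg at 0.05. Standard errors and 95% intervals come from the F statistic. A count of 0 allows up to 3 counts, 0.111 to 0.167 CPM of the unscaled totals. Pairs of libraries of a group differed beyond sampling noise (chi-square per degree of freedom 16.4 to 141). Alternatives were DESeq2 1.42.0, limma 3.58.1 (voom), other factors and filters, a replicate block, GC content and length offsets (GC known for 98.1% of tested genes, from GENCODE M21) and libraries left out; leaving out Control 2 with HBG 1 was chosen after seeing the data.

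Members and lists were chosen with earlier results of these data known. Named genes were all members and, per pathway list, the 2 genes of smallest p in Model against Control and in HBG against Model. These list genes had a mean of at least 1 CPM. Named too were the 3 genes most correlated with each member, leaving out other members, predicted genes and pseudogenes. Cd68, Jund and others outside this appear as list members. Markers of mesothelium, endothelium, smooth muscle and neutrophils were measured too, with no gene called by edgeR in any comparison; their summed levels ranged from 243.0 to 600.4, 1286 to 4624, 532.4 to 1934 and 30.4 to 579.0 CPM.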

Additional observations from a re-analysis of the deposited data

Results flagged for a closer look

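In 3 cases a library stood apart within a group of 4 libraries by Dixon's criterion, which compares the gap to the nearest library with the range, out of 30 groups examined, where chance flags about 1 in 20. Ccn1 had 541 CPM in Control 2, against 140.0 to 201.7 in the other Control libraries (gap 0.846 of the range). Thbs2 had 5.53 CPM in Control 4, against 2.37 to 2.53 in the others (gap 0.948). Thbs4 had 6.72 CPM in HBG 1, against 0.142 to 1.08 in the others (gap 0.857).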

How the results depend on the processing

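No member kept an adjusted p under 0.05 in edgeR with all libraries, and this held in HBG against Model and HBG against Control under every alternative run. In Model against Control 1 member, Fn1, passed without Model 4, 0 with any other single library left out, 1 without both Model 4 and HBG 3, 2 in DESeq2 and 6 in limma-voom with quality weights. All 10 members kept the sign of Model against Control throughout. Over all genes, 62 were called in Model against Control (9 higher, 53 lower), and 23 to 100 with 1 library left out, lowest without Control 3 and highest without HBG 3. Counts of 25 with the replicate block, 36 with GC and length offsets, 41 without Control 2 and HBG 1, 354 without Model 4 and HBG 3 (224 higher), 418 in DESeq2 (181 higher) and 1079 in limma-voom (620 higher) were obtained. HBG against Model called 0 genes except in DESeq2, with 3. HBG against Control called 27, and 16 to 53 with 1 library left out, lowest without Control 3 and highest without Model 2, 17 with the block, 16 without Control 2 and HBG 1, 101 in limma-voom and 198 in DESeq2. Deviations from the group means showed no general pairing by replicate number. Same-numbered libraries were correlated at -0.357 to 0.482, 3 of 12 pairs over 0.1, and 3 of 12 libraries correlated best with their own number. Such correlations do not show whether libraries were handled in pairs. The block changed no member's call. Signs near 0 turned. Ccn1 in HBG against Model reached 0.10 without Model 4 and HBG 3, and ranged from -0.36 to 0.16 with 1 library left out. In HBG against Control, Tnc was -0.074 with the block, -0.055 in limma-voom and -0.15 without Control 2 and HBG 1 (-0.32 to 0.32 with 1 library left out), and Sparc -0.035 in limma-voom and -0.045 without Control 4, Model 2 and HBG 3. Ccn2 was 0.013 with no filter, 0.049 without Model 4 and HBG 3 and 0.003 in DESeq2 (-0.13 to 0.15), Thbs1 0.037 with the block and 0.29 without Control 2 and HBG 1 (-0.26 to 0.50), Thbs2 0.16 without Control 4, Model 2 and HBG 3 (-0.23 to 0.34), and Vcan ranged from -0.24 to 0.06. The cause was not tested. Depth limits Thbs4, with as few as 3 counts in a library.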
